A study of Mus musculus with 74 samples.

Results

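Gm13145, Zfp872 and Zfp953 are KRAB zinc finger proteins (KRAB-ZFPs) that were each expressed with a C-terminal 3XHA epitope tag in F9 cells, an embryonal carcinoma line from mouse, and immunoprecipitated with an HA antibody (ab9110) for ChIP-seq. Their peaks are all rows of the deposited peak table that carry these 3 names, 767 of 53255 rows, with 444 peaks for Gm13145, 188 for Zfp872 and 135 for Zfp953. The 3 ChIPs were selected on measured values, namely on how often their peaks lay at loci that other ChIPs also called, so sharing among them and with the other HA ChIPs is described here and not tested. They were compared with the other 27 F9 ChIPs that were called against the same input and the same HA control and analysed here, of which 20 had a C-terminal and 7 an N-terminal 3XHA tag.

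All these cells also carry their own unmodified KRAB-ZFP genes. The labels name no treatment or time course for these ChIPs, while the study's methods give selection of the cells with puromycin. Every protein was represented by 1 sample, whose values carry no replicate error. Per the study's methods, the reading frames of these 3 were codon-optimized, the vectors were integrated stably and resistant clones were pooled, with C-terminal HA tags in a pTRE vector and N-terminal HA tags in a Sleeping Beauty transposon vector, so that the end of the tag and the vector cannot be told apart. The levels of the tagged proteins were not measured in these files, and neither the controls nor the depth of the libraries are in the table. The tags inside called peaks summed to 23859 for Gm13145, 7657 for Zfp872 and 6073 for Zfp953, which are sums over peaks and not library depths. A missing peak at a locus therefore does not show that the protein was absent from it.

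KRAB-ZFPs are one of the largest families of transcription factors in mammals. An array of C2H2 zinc fingers reads the DNA sequence, and the KRAB domain recruits KAP1 (Trim28), which brings the histone methyltransferase Setdb1 and leads to H3K9me3 and silencing. Many members of the family bind transposable elements, and their genes lie in clusters that expanded in rodents. Gm13145 lies on chromosome 4, Zfp872 on chromosome 9 and Zfp953 on chromosome 13, so the 3 proteins come from different clusters. In the longest annotated coding sequence of each gene, the C2H2 pattern occurred 3 times in Gm13145 (335 residues), 12 times in Zfp872 (464 residues) and 8 times in Zfp953 (304 residues). The reading frames that were cloned were not compared with these.

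The 6 loci shown here in mm9 are those called in all 3 ChIPs at which the 3 summits lay closest together. Each line gives the 200 bp window of Gm13145 on the plus strand, and capitals mark the stretch from the lowest to the highest of the 3 summits with 10 bp on either side.

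Slit1 intron, chr19:41707753-41707952: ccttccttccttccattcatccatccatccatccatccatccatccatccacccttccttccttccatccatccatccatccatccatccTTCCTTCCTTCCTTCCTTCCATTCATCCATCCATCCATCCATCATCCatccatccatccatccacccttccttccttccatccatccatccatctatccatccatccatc

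Upstream of Dab1, chr4:103280125-103280324: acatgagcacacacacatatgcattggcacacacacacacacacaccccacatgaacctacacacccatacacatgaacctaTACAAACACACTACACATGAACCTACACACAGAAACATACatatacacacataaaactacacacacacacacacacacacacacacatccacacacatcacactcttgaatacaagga

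Lrp1 intron, chr10:127007534-127007733: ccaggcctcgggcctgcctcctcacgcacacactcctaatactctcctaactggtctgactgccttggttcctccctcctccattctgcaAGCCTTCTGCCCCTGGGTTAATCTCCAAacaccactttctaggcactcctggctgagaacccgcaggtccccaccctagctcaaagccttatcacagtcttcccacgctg

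Actn1 intron, chr12:81296384-81296583: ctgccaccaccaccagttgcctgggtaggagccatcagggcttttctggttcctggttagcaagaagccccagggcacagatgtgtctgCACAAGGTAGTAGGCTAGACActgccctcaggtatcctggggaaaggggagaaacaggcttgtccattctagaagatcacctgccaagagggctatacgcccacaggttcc

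Wdr25 intron, chr12:110188740-110188939: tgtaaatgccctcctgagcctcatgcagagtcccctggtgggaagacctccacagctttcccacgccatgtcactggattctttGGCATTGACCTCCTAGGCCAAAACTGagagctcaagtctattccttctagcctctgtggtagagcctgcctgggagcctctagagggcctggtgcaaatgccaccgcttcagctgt

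Upstream of Pdzd8, chr19:59453806-59454005: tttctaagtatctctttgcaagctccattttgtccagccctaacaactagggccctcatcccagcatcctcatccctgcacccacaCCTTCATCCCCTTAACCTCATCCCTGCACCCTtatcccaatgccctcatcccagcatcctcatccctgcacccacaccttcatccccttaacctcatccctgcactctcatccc

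The window in the Slit1 intron was made of a tandem array of short tetranucleotide units, and the window upstream of Dab1 was rich in CA dinucleotides. The longest perfect tandem run with a unit of up to 6 bp was 34 bp at Slit1 and 29 bp at Dab1, against 9 to 12 bp in the windows of the other 10 loci called in all 3 ChIPs. The windows in the introns of Lrp1, Actn1 and Wdr25 and upstream of Pdzd8 held no such run of 24 bp. Longer units were not searched. The Pdzd8 window is itself repetitive: a long stretch that holds most of the capitals occurs again later in the same window.

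Peaks of the 3 ChIPs were low in enrichment and close to the limit of the peak calling. The authors kept peaks with a p-value under 1e-10 and an enrichment over 20 in all 3. The median fold enrichment over control was 22.7 for Gm13145, 22.4 for Zfp872 and 22.7 for Zfp953, and 75.2%, 76.1% and 79.3% of their peaks lay under 25-fold. The deposited folds resolve differences of this size poorly, because many of them fall on a ladder of whole steps. In Gm13145, 48.9% of folds were within 0.01 of a multiple of 1.28, in Zfp872 55.9% were that close to a multiple of 1.402, and in Zfp953 43.0% to a multiple of 1.43. The 3 medians thus differed by less than 1 step.

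A fold of at least 30 was reached by 17 of 444 peaks in Gm13145, 5 of 188 in Zfp872 and 3 of 135 in Zfp953. These are 3.83%, 2.66% and 2.22% of peaks, while among the 16 other HA ChIPs called with the same thresholds the lowest share was 2.17%, the median 46.1% and the highest 80.9%. The 3 ChIPs thus lay at the low end of that range. Their median number of tags per peak was 51, 40 and 42, against 22.5 to 306 with a median of 62.5 in those 16 ChIPs. The highest tag count of any peak was 105 in Gm13145, 81 in Zfp872 and 130 in Zfp953.

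**Figure D1:**
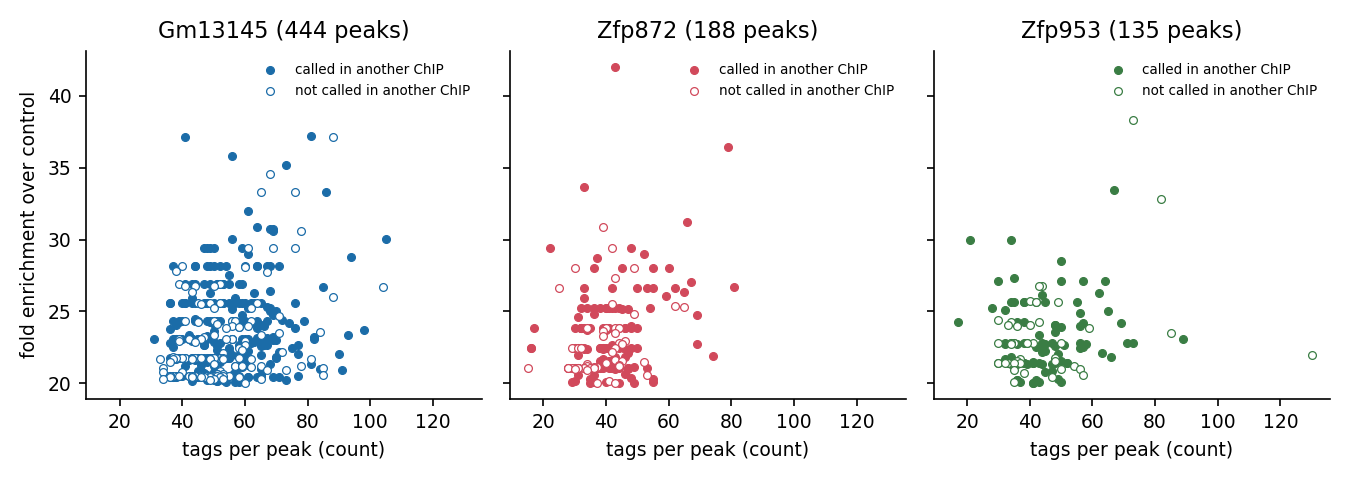
Tags per peak (x axis, count) and fold enrichment over control (y axis) of every peak of Gm13145, Zfp872 and Zfp953. Filled points are peaks at loci also called in another ChIP and open points are peaks at loci called in none. Most peaks sit between 20- and 25-fold in all 3 panels, and both filled and open points reach beyond 30-fold in each of them.

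Windows of 200 bp with an overlap of 25% or more were merged into loci over all 67 labelled KRAB-ZFPs in the table. Of 673 loci held by the 3 ChIPs, 591 were called in 1 of them, 70 in 2 and 12 in all 3. Gm13145 and Zfp872 shared 51 loci, which were 11.5% of the Gm13145 loci (95% Wilson interval 8.85 to 14.8%) and 27.1% of the Zfp872 loci (21.3 to 33.9%). Gm13145 and Zfp953 shared 37 loci, 8.33% of the first (6.11 to 11.3%) and 27.4% of the second (20.6 to 35.5%). Zfp872 and Zfp953 shared 18 loci, 9.57% of the first (6.14 to 14.6%) and 13.3% of the second (8.60 to 20.1%). For comparison, 11.5% of all 10846 loci of the 30 HA ChIPs were called in at least 2 of them. This share counts a locus once, however many ChIPs called it, and is not a share of 1 list. The intervals cover counting error only, and since the choice of the ChIPs used this sharing nothing further is read from it.

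Where 2 of the ChIPs shared a locus, their summits were close. The median distance between summits was 12 bp for Gm13145 and Zfp872, 21 bp for Gm13145 and Zfp953 and 6.5 bp for Zfp872 and Zfp953, and 31 of 51, 17 of 37 and 13 of 18 pairs lay within 20 bp. Gm13145 had more tags than Zfp872 at 46 of the 51 shared loci, with medians of 55 and 44 tags, and more than Zfp953 at 30 of 37, with medians of 58 and 45 tags. Across the shared loci, the correlation of log2 tags was 0.78 for Gm13145 and Zfp872 (n = 51), 0.56 for Gm13145 and Zfp953 (n = 37) and 0.91 for Zfp872 and Zfp953 (n = 18). These points are loci and not replicates, and both ChIPs of a pair share the input, the HA control and the local sequence.

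The 12 loci called in all 3 ChIPs were placed by their Gm13145 summit. At the summit of Gm13145, 6 were in introns, 5 between genes and 1 in a coding exon, and none was within 1 kb of an annotated transcript start. Of all peaks of Gm13145, Zfp872 and Zfp953, 5.86%, 6.38% and 6.67% lay that near a start. At these shares, finding none among 12 loci is not a result about them. The distance spanned by the 3 summits was 1 bp at the least, 34.5 bp at the median and 102 bp at the most, and in 5 of the 12 it was at most 20 bp.

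The strongest of them was in an intron of Slit1, which encodes a secreted axon guidance protein. It had a fold of 37.2 with 81 tags in Gm13145, 36.4 with 79 tags in Zfp872 and 33.4 with 67 tags in Zfp953, and was the highest-fold peak of Gm13145 and the second highest of the others. Its sequence occurs in many places: the median copy number of its 24-mers in the genome was 39, 41 and 60 in the 3 windows, so reads from other copies of the array could have been placed here. The deposited false discovery rate there was 6.90%, 14.3% and 40.0%, and the locus was called in 10 ChIPs in all. The locus 11.7 kb upstream of the nearest annotated start of Dab1, an adaptor of Reelin signalling, followed with folds of 28.8, 31.2 and 26.2 and 94, 66 and 62 tags in Gm13145, Zfp872 and Zfp953. Its 24-mers had a median copy number of 1, and it was called in 8 ChIPs.

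In an intron of Lrp1, an endocytic receptor of the LDL receptor family, the folds were 30.7, 25.2 and 27.1 with 68, 41 and 50 tags, and the 3 summits lay within 8 bp. In an intron of Wdr25, a WD repeat gene, they were 30.04, 21.9 and 23.1 with 105, 74 and 89 tags and summits within 6 bp. In an intron of Actn1, which encodes the actin cross-linker alpha-actinin, they were 23.0, 26.4 and 21.4 with 56, 65 and 52 tags and summits within 1 bp. These 3 windows were single-copy, and no ChIP of the 3 was highest at all of them.

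Iqgap3, a cytoskeletal scaffold gene, held the only locus of the 12 in a coding exon, with folds of 23.0, 21.0 and 24.1, and the Zfp953 summit fell in the adjoining intron, with the 3 summits spanning 62 bp. An intron of Gbf1, which encodes an exchange factor for Arf GTPases at the Golgi, had folds of 21.1, 21.8 and 20.8 and an intron of Plekho2 had 21.8, 23.8 and 22.8. Of the intergenic loci, the one 31.5 kb from the start of Htr3a, a serotonin-gated ion channel subunit, had 25.6, 21.0 and 22.8, and the one 33.6 kb from the start of Pdzd8, a lipid transfer protein of the endoplasmic reticulum, had 22.1, 20.1 and 22.1. Those nearest to the predicted genes Gm12824 and Gm447 had 24.3, 26.6 and 22.8, and 23.0, 20.0 and 21.8. The largest difference between the 3 folds at any of these 7 loci was 4.57, at the Htr3a locus, and at Gbf1 they differed by less than 1 step of the ladder. Gm13145 had the most tags at 9 of the 12 loci.

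**Figure D2:**
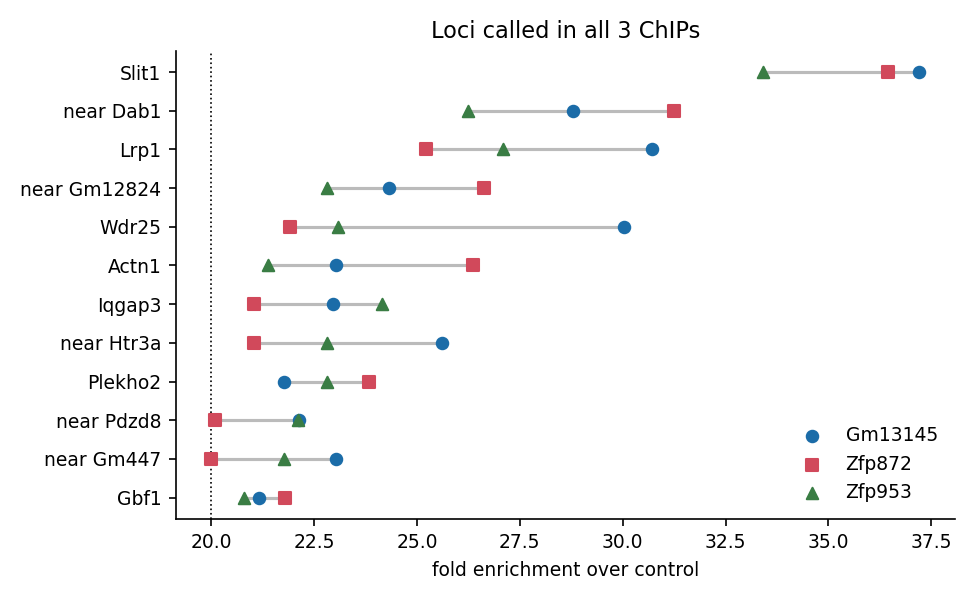
Fold enrichment over control (x axis) at each of the 12 loci called in all 3 ChIPs, with 1 point per ChIP and a grey line from the lowest to the highest value. The dotted line marks the enrichment threshold of 20. The Slit1 locus stands at 33.4 to 37.2, and at every other locus all 3 points are at or under 31.25.

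All 12 loci were also called outside the 3 ChIPs, in 4 to 10 ChIPs in all with a median of 6. Zfp457 was called at 8 of them, Zfp759 at 7, the FLAG ChIP of Gm13251 at 6 and Gm13235 at 5. The locus in the Actn1 intron had only Zfp874b, that in the Wdr25 intron only Gm13235, and that near Gm12824 only Zfp457 beside the 3.

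Beyond the 12, multi-copy windows (a median 24-mer copy number of at least 2) made up 7 of 39 loci shared by Gm13145 and Zfp872 alone, 2 of 6 shared by Zfp872 and Zfp953 and 0 of 25 shared by Gm13145 and Zfp953. Over all peaks, such windows were 13.3% in Gm13145, 13.8% in Zfp872 and 10.4% in Zfp953. With so few loci, no difference between the pairs is read from these counts. An intron of Tmco5b at chr2:113136114-113136314 had the highest fold of Zfp872, 42.0 with 43 tags, and 37.1 with 41 tags in Gm13145, with summits 1 bp apart and a median of 32 copies. It was called in 7 ChIPs, but not in Zfp953. An intron of Gm3383 at chr14:5557042-5557245 had 35.8 in Gm13145 and 29.4 in Zfp872 with a median of 41 copies. An intergenic locus at chr1:33156084-33156284 had 29.4 with 22 tags in Zfp872 and 29.9 with 21 tags in Zfp953, again with summits 1 bp apart, and its 24-mers had a median of 672 copies. It was among the 5 highest folds of Zfp953 and was called in 7 ChIPs. The locus of highest fold that Gm13145 and Zfp953 alone shared, 77.6 kb from the start of Cdc5l, had 28.2 and 28.5 and was single-copy.

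Other peaks among the 5 highest folds were called in few ChIPs or in none but their own. Zfp953 had its highest fold, 38.4 with 73 tags, in an intron shared by the annotations of Jph3 and Gm20388, with a deposited false discovery rate of 62.5%, and a fold of 32.8 with 82 tags and a rate of 100% in an intron of Atp2b2, a plasma membrane calcium pump gene. Both were single-copy and neither was called in another ChIP. The second highest of Gm13145, 37.1 with 88 tags, lay 30.2 kb from the start of Fam126a in a window with a median of 7 copies, and was not called elsewhere either. Its peak with a fold of 35.2 and 73 tags in an intron of Rph3al was shared with Zfp457 alone. Zfp872 had 33.6 with 33 tags in an intron of Fbxo21, which was shared with Gm13235 and Zfp457, and 30.8 with 39 tags in an untranslated exon of Gm4847, 89 bp from its start, which was called in no other ChIP. In Zfp953, a fold of 29.9 with 34 tags, 9.52 kb from Kars-ps1 on the X chromosome in a window with a median of 8 copies, was shared with Gm13235, Gm13251 and Zfp759.

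Most loci of each ChIP were called in some other ChIP. This was so for 309 of 444 loci of Gm13145 (69.6%), 133 of 188 of Zfp872 (70.7%) and 93 of 135 of Zfp953 (68.9%), which were the 3 highest shares among the 30 HA ChIPs. In the other 27 the lowest share was 0.629%, the median 30.6% and the highest 63.0%. Over all 48767 loci of the labelled KRAB-ZFPs, 6.31% were called in at least 2 of them. Counting other HA ChIPs only, the shares were 62.8%, 62.8% and 65.2%. Loci called in 5 or more ChIPs made up 10.4% of the Gm13145, 13.3% of the Zfp872 and 17.0% of the Zfp953 loci, against 0.830% of all HA loci. A locus called in several ChIPs counts once in the shares over all loci, but in the list of each of these ChIPs. The shares over all loci are lower for that reason too, and only the shares of the other 27 are of the same kind.

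**Figure D3:**
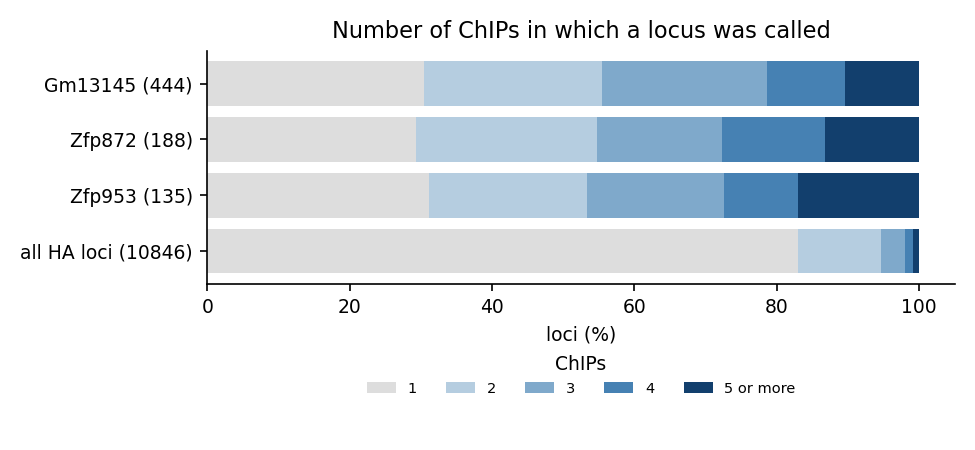
Percent of loci (x axis) by the number of ChIPs in which a locus was called, for each of the 3 ChIPs and for all loci of the 30 HA ChIPs, with the number of loci in brackets. Loci called in 1 ChIP make up 29.3% to 31.1% of the loci of the 3 ChIPs and 82.9% of all HA loci. In the bar of all HA loci each locus counts once, however many ChIPs called it.

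The partners among the HA ChIPs were unevenly distributed. Zfp759, called with the same thresholds, held 122 Gm13145 loci, 44 Zfp872 loci and 29 Zfp953 loci, which were 27.5%, 23.4% and 21.5% of their lists and 14.95%, 5.39% and 3.55% of the Zfp759 list. Gm13235 and Zfp457 had lists of 1790 and 1812 loci at the looser thresholds of p under 1e-05 and enrichment over 10. Gm13235 held 24.8% of the Gm13145, 24.5% of the Zfp872 and 30.4% of the Zfp953 loci, and Zfp457 held 21.2%, 25% and 20.7%. Zfp709 came next with 11.0%, 9.04% and 17.0%. The order of the HA partners thus differed between the 3 ChIPs, with Zfp759 first for Gm13145, Zfp457 for Zfp872 and Gm13235 for Zfp953. In Zfp872 the first 3 held 47, 46 and 44 of its loci, so their order rests on few loci.

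Of the 10 HA partners with at least 10 shared loci, 8 had a higher median fold at the loci shared with the 3 ChIPs than at the rest of their list and 2 a lower one, Zfp938 with 21.1 against 21.4 and Zfp874b with 21.38 against 21.47. In Gm13235 the median fold was 14.3 at the 158 shared loci and 12.1 at the rest, in Zfp457 it was 12.5 at 132 and 11.8, and in Zfp759 it was 23.1 at 152 and 22.5. The ladder steps of the partners' folds were not determined. Within the 3 ChIPs, the peaks called elsewhere were set against those that were not. Their median folds were 23.0 against 21.8 in Gm13145, 22.4 against 21.6 in Zfp872 and 22.7 against 22.8 in Zfp953, which are differences of at most 1 step of the ladder.

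Among the other 27 HA ChIPs, 15 shared at least 1 locus with the 3 and 12 shared none. Of the 20 with a C-terminal tag, 13 shared a locus and 10 shared at least 10. Of the 7 with an N-terminal tag, Zkscan17 shared 7 loci and Zfp600 shared 2, and the other 5 none, although these 7 lists together held 3384 loci. The 7 C-terminal ChIPs that shared no locus had lists of 72 to 544 loci. The part of the tag end, the vector, the list length or the proteins in this was not tested.

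**Figure D4:**
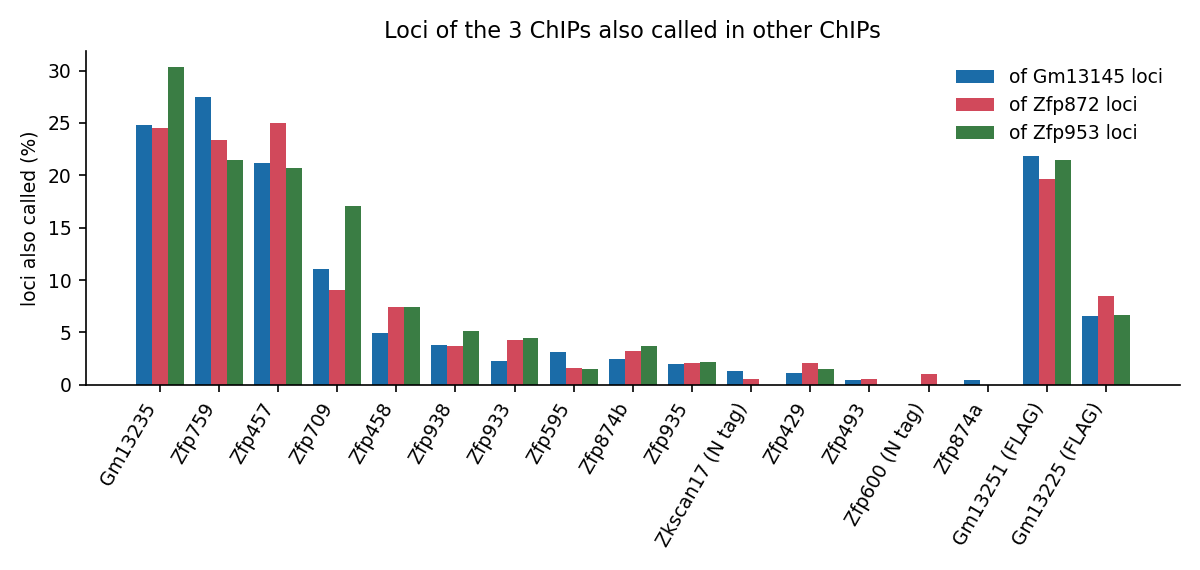
Percent of the loci of Gm13145, Zfp872 and Zfp953 (y axis, 1 bar each) that were also called in each of the 15 other HA ChIPs with any shared locus, and in the FLAG ChIPs Gm13251 and Gm13225. Gm13235, Zfp759, Zfp457 and Gm13251 each held between 19.7% and 30.4% of every list, and the 2 N-terminally tagged HA ChIPs at most 1.35%.

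Sharing with ChIPs made in another way is described here and not tested either, because the ChIPs were selected on sharing. The measure is the share of peaks at loci that were also called in at least 1 of the 37 ChIPs with a FLAG tag, another control or ES cells. It was 25.9% for Gm13145 (115 peaks), 25% for Zfp872 (47) and 26.7% for Zfp953 (36), and in the other 27 HA ChIPs the lowest was 0%, the median 8.87% and the highest 54.1%. Of these, 26 lay below all 3 and 1, Gm13150, above. In loci called in 1 HA ChIP only, the measure was 18.2% of 165 for Gm13145, 21.4% of 70 for Zfp872 and 10.6% of 47 for Zfp953.

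Most of this sharing was with 1 library. Gm13251, an N-terminal 3XFLAG ChIP with 3300 loci, held 97 Gm13145 loci, 37 Zfp872 loci and 29 Zfp953 loci. Without Gm13251 the shares were 8.78%, 10.1% and 8.89%, and the means of the 3 and of the other 27 were 9.26% and 7.70%, against 25.9% and 10.8% with it. Gm13225, also N-terminal 3XFLAG, held 29, 16 and 9 loci. These 2 FLAG ChIPs were made in F9 cells too and called against the same input as the 3, with a FLAG control. Without both, the means were 2.10% and 6.66%, and the order of the means turned. Of the 37 ChIPs, 25 shared no locus with the 3.

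**Figure D5:**
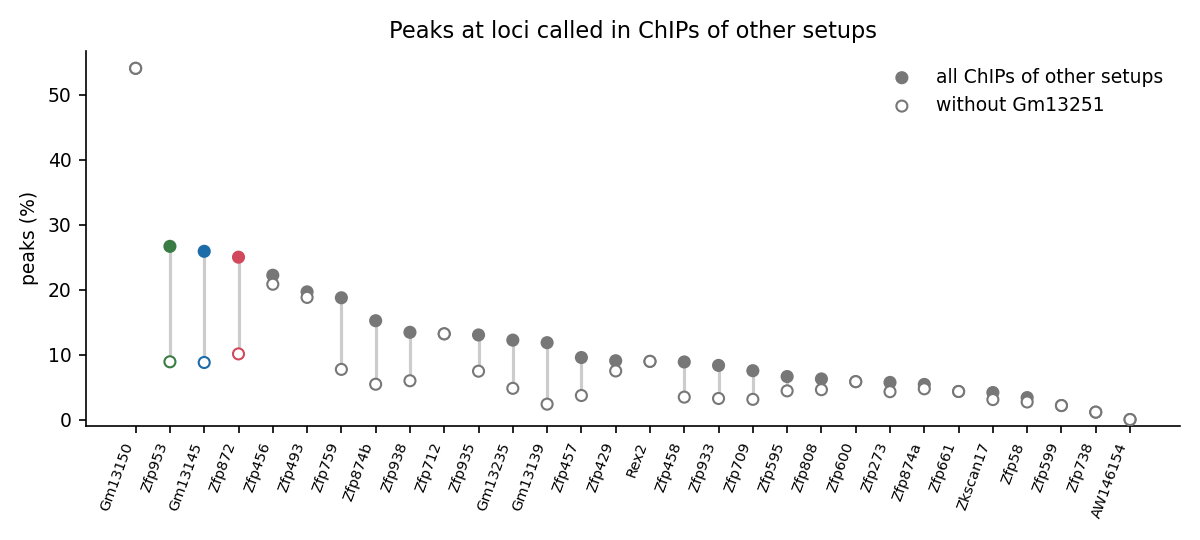
Percent of peaks (y axis) at loci also called in ChIPs of other setups, for each of the 30 HA ChIPs, with Gm13145 in blue, Zfp872 in red, Zfp953 in green and the others in grey. Filled points count all 37 ChIPs of other setups and open points leave out Gm13251. The 3 coloured points drop from between 25% and 26.7% to between 8.78% and 10.1%.

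In what kind of sequence they lay, the 3 ChIPs had close values, within the range of the other HA ChIPs. The median GC content of the windows was 49.0% in Gm13145, 49.5% in Zfp872 and 47.5% in Zfp953, above the 45.2%, 45.6% and 45.0% of the windows 1 kb to either side. The other 27 lay between 35.0% and 55.0% around a median of 46.5%, and the difference of the means of 2.54 percentage points did not pass (two-sided exact permutation test over ChIPs, n = 3 and 27, p = 0.385, Benjamini-Hochberg adjusted p = 0.499). The smallest p this design allows is 0.00049. A window held on average 1.97, 1.93 and 1.85 CpG dinucleotides, against 0.919 to 9.69 in the others, and this did not pass either (exact permutation test, p = 0.333, adjusted p = 0.499).

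Sequence present more than once in the genome was a minor part. Windows with a median 24-mer copy number of at least 2 made up 13.3% of Gm13145 peaks (59 peaks, 95% Wilson interval 10.4 to 16.8%), 13.8% of Zfp872 peaks (26, 9.62 to 19.5%) and 10.4% of Zfp953 peaks (14, 6.28 to 16.7%). The others lay between 5.03% and 81.4% around a median of 14.1% (exact permutation test, p = 0.474, adjusted p = 0.499). Copy numbers of 100 or more were found at 5, 3 and 1 peaks. The widths of the called peaks, with medians of 279.5, 226 and 232 bp, lay below the median of 296.5 bp of the others (exact permutation test on log10 widths, p = 0.259, adjusted p = 0.499). These p-values miss the threshold and do not show that the ChIPs were alike.

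Short repeats were present in more windows than in the sequence beside them. A perfect tandem run of at least 24 bp with a unit of 1 to 6 bp was found in 10.6% of Gm13145 windows, 14.9% of Zfp872 windows and 14.1% of Zfp953 windows, against 5.52%, 6.12% and 4.81% of the windows 1 kb to either side. With the windows of the other 27 HA ChIPs pooled, it was in 7.34% against 5.17% at 1 kb, so an excess was present there too. The spread between those ChIPs was not determined. The letters GAGAGAGA, searched on both strands as all motifs here, were in 7.21%, 10.6% and 8.15% of windows against 3.94%, 3.72% and 1.85% at 1 kb, and CACACACA was in 11.9%, 9.57% and 9.63% against 6.42%, 7.45% and 6.30%. In windows of the other HA ChIPs these were 4.43% and 7.94%. Tandem runs and these letters overlap, and no test was made over windows.

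The excess of short words found on some chromosomes was small on the others for all words but 1. For each ChIP, the 5 words of 6 letters with the largest excess over the windows at 1 kb were found on even-numbered chromosomes and then counted on the others. CCAGCC, first for Gm13145, was in 32.5% of windows against 17.7% on the even-numbered and in 18.9% against 20.0% on the others. CTCTCA, first for Zfp953, went from 35.4% against 16.9% to 17.1% against 16.4%. CAGGCC, first for Zfp872, was in 28.6% of 84 windows against 11.9% and then in 21.2% of 104 against 9.13%, with 9.91% in the windows of the other HA ChIPs. On the other chromosomes 10 of the 15 words were still in excess, and CAGGCC was the only 1 with an excess above 5 percentage points.

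The fixed motifs of common factors were rare. An E-box (CACGTG) was in 2.70%, 1.06% and 2.22% of windows and the AP-1 letters TGACTCA were in 3.604%, 3.72% and 2.96%, against 2.39% and 2.89% in the other HA ChIPs. The GC box GGGCGG was in 1.80%, 4.26% and 1.48% against 3.78%. The letters ATGCAAAT (octamer), GCATGCGC (NRF1), AAGATGGC (YY1), ACTACAAT (ZNF143), CCGGAAGT (ETS) and AGGGGGCG (CTCF) were rarer still or as rare, the most frequent being YY1 in 3.70% of Zfp953 windows (5 windows).

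Most peaks were in introns or between genes, with shares within the range of the other HA ChIPs. Introns held 43.7% of the Gm13145, 48.4% of the Zfp872 and 41.5% of the Zfp953 summits and intergenic sequence 52.5%, 46.8% and 54.8%. In the other HA ChIPs the median was 40.3% for introns (16.0% to 52.3%) and 55.1% for intergenic sequence (42.3% to 83.8%). Coding exons held 12, 6 and 3 summits and untranslated regions 4, 3 and 1. Summits within 1 kb of an annotated transcript start numbered 26 (5.86%), 12 (6.38%) and 9 (6.67%), against a median of 6.94% and a range of 1.49% to 48.6% in the others (two-sided exact permutation test, p = 0.499, adjusted p = 0.499). Named after their values were seen, the peak of highest fold near a start in Gm13145 was at Gtf3c5, a subunit gene of the RNA polymerase III factor TFIIIC, with a fold of 30.6 and 69 tags 24 bp from the start. Near starts, 4 loci were shared by 2 of the ChIPs. They were at Eif2ak4, the amino acid sensing kinase GCN2, with folds of 25.6 in Gm13145 and 21.4 in Zfp953, at a SNORA17 entry on chromosome 10 with 28.2 and 21.4 in the same ChIPs, at Mad1l1, a spindle checkpoint gene, with 22.7 in Gm13145 and 20.0 in Zfp872, and at Dhtkd1, a mitochondrial dehydrogenase gene, with 21.8 and 23.8 in Gm13145 and Zfp872.

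Of all 37310 annotated genes, 1.08% had a Gm13145 summit within 10 kb of the gene body, 0.415% a Zfp872 summit and 0.351% a Zfp953 summit. Of the pluripotency network, the factors that hold embryonal carcinoma and ES cells undifferentiated, none of the 19 genes found in the annotation (Pou5f1, Sox2 and Nanog among them) had a summit of any of the 3, and the same held for the 22 entries of the KAP1 silencing machinery (Trim28, Setdb1 and the HP1 genes among them) and the 70 histone genes. At these rates fewer than 1 gene would be counted in each list, so a count of 0 is not a result about them.

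Of 397 zinc finger genes, the family to which the 3 proteins themselves belong, 6 had a Gm13145 summit (1.51%), 5 a Zfp872 summit (1.26%) and none a Zfp953 summit. An intron of Zfp277 was held by both, with a fold of 26.9 and 51 tags in Gm13145 and 22.4 and 31 tags in Zfp872. The others were Zfp746, Zfp667, Zfp607, Zfp791 and Zfp52 for Gm13145, with folds from 20.4 (Zfp791) to 28.1 (Zfp746), and Zfp112, Zfp536, Zfp3 and Zfp385c for Zfp872, with folds from 20.6 (Zfp385c) to 23.8 (Zfp112 and Zfp3). None of the 3 ChIPs had a summit in the Gm13145, Zfp872 or Zfp953 gene itself, and the nearest summit of any was 0.667 Mb away, of Zfp872 from Zfp953. Over all genes, the share with a summit within 10 kb was at most 1.08% in any of the ChIPs. The lack of a summit in 3 genes is thus not a result about them.

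Of 80 ribosomal protein genes, 3 had a Gm13145 summit within 10 kb (Rpl10a, Rpl13 and Rps14), 2 a Zfp872 summit (Rpl10a and Rps14) and none a Zfp953 summit, and all of these lay 8712 bp or more from the gene. Over all protein-coding genes, from which the zinc finger and ribosomal lists were drawn, the shares were 1.47%, 0.581% and 0.456%. Of 5371 small RNA genes, 21 (0.391%), 6 (0.112%) and 8 (0.149%) had a summit, below the shares over all genes. Small RNA genes are short, and gene length was not taken into account, so the lower shares are not a result about them.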

How the data were processed

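Peaks of 67 labelled KRAB-ZFPs were taken from 1 table. Per the labels, reads of the 30 HA ChIPs were mapped to mm9 with Bowtie after trimming the first bases. Their peaks were called per sample with MACS 1.4.2 against input and the HA control. The 37 ChIPs of other setups were handled differently. Those with a FLAG tag had a FLAG control in place of the HA control. Of the rest, the F9 ChIPs had Bowtie2 mapping and a different control ChIP. The ES cell ChIPs had untrimmed reads and only an input as control. The authors set each peak to 200 bp around the summit. The authors deposited for each peak the tags as a raw count, a score (10 times the negative log10 of the p-value), the fold enrichment over control as a ratio, and the false discovery rate as a percent. Multi-mapping reads were placed at 1 best position, so repeat copies can exchange peaks. Table starts were read as counting from 0. One name in the table (1 of 68) matched no label and was not used, and 1 labelled KRAB-ZFP of the HA control group was not analysed here.

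Windows were read from NCBIM37, which is mm9, and annotated with gencode vM1. Windows with an overlap of 25% or more were merged into loci. Copy number is the median over a window's 24-mers of exact genome occurrences on both strands. Ribosomal protein genes leave out the kinases and pseudogenes with such symbols. The unit of each test was the ChIP: two-sided exact permutation tests over 4060 splits (scipy), adjusted by Benjamini-Hochberg over 6 tests, with a threshold of 0.05. The measure on ChIPs of other setups was among the 6 and is given as a description, since the ChIPs were selected on sharing. The test and the joining of loci were tested on simulated data. Named loci were all those called in all 3 ChIPs and the 5 highest folds of each. The members, lists and tests were chosen with earlier results of these data known. Alternatives changed peak strength, thresholds, tags, overlap, copy number and the ChIPs left out.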

Additional observations from a re-analysis of the deposited data

How the results depend on the processing

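None of the 5 measures tested passed the threshold in the main tests, and leaving out Gm13145, Zfp872 or Zfp953 in turn passed none, with adjusted p between 0.635 and 0.734. The differences then ranged in peaks at loci of other setups, a description, from 14.7 to 15.5 percentage points, in GC content from 2.12 to 3.12 points, in CpG from -1.44 to -1.38 per window, in peaks near starts from -4.61 to -4.20 points, in multi-copy peaks from -11.6 to -9.91 points and in log10 width from -0.13 to -0.08. With peaks of a score of at least 200 and a fold of at least 30, which left 17, 5 and 3 peaks and dropped 4 of the other ChIPs, the width difference of -0.24 on the log10 scale passed (exact permutation test, adjusted p = 0.0231) and the multi-copy difference turned to 2.44 points. With the same filter, Gm13145 and Zfp872 shared 2 loci, either shared 1 with Zfp953, and 1 was in all 3. Without loci called in 5 or more ChIPs the pairs shared 33, 23 and 5 loci and all 3 shared 3. Added after the data were seen, leaving out Gm13251 and Gm13225 turned the difference in other setups to -4.56 points, and leaving out Gm13251 alone gave 1.56 points. The cause was not tested. The difference in other setups was 28.3 points with the strong peaks and 8.86 points at loci called in 1 HA ChIP, against 15.1. With the 16 other ChIPs of the same thresholds, the multi-copy difference was -17.8 against -11.0 points and the width difference -0.17 against -0.10. These and the remaining alternatives kept the direction and the call, and the remaining counts were within 1.5 times. No paired analysis was possible because each KRAB-ZFP had 1 sample. Depth was unknown, and a peak not called says little about binding at a locus.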

Other observations

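The deposited false discovery rate was highest at the peaks of highest score. In Gm13145 the 10 peaks of highest score had a median rate of 7.45% against 0.30% for the rest, in Zfp872 4.66% against 0.29% and in Zfp953 45.0% against 0.69%. Zfp953 reached 100% at the Atp2b2 intron, and 18 of its 135 peaks had a rate above 5%, against 7 of 444 in Gm13145 and 4 of 188 in Zfp872. Of the other 27 HA ChIPs, 23 also had the higher median rate in their 10 peaks of highest score. At the Slit1 locus the rate was 6.90% in Gm13145, 14.3% in Zfp872 and 40.0% in Zfp953. MACS estimates this rate by calling peaks with the ChIP and the control exchanged. The part of the control libraries in these peaks was not tested.

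Zfp953 had 11 of its 135 peaks on chromosome 18 (8.15%), which makes up 3.42% of the assembled chromosomes and held 4.05% of Gm13145 and 3.19% of Zfp872 peaks. Chromosome 18 was named after the values were seen. Chromosome 11, with 4.59% of the length, held 12 Zfp953 peaks (8.89%), and chromosome 9, with 4.67%, held 11. On the X chromosome, with 6.28% of the length, lay 2.48%, 1.60% and 5.19% of the peaks of Gm13145, Zfp872 and Zfp953. Of the peaks of the other HA ChIPs, 3.78% lay there. None of the 3 had a peak on the Y chromosome, which makes up 0.599% of the length and held 0.0504% of those peaks. At that share, a count of 0 is not a result about the Y chromosome.

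The peak with the most tags among the 3 ChIPs was a Zfp953 peak 373 bp from a start of Sgca, a sarcoglycan gene, with 130 tags but a fold of 21.9, and it was called in no other ChIP. It was named after its value was seen.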
